A study of Mus musculus with 15 samples.

Results

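The ventral midbrain was compared with the forebrain in the mouse embryo at E12.5 (midgestation), with 3 RNA-seq libraries of each, so 6 of the 15 libraries and 2 of the 5 dissected regions of the series enter the comparison. The libraries were chosen by their labelled region alone, with no measured value used. Per the labels, all of these embryos, of both regions, were C57bl/6 mice that carried green fluorescent protein under the promoter of Th, the gene of tyrosine hydroxylase. Neither region was treated, and each sample was dissected tissue, so every cell type of the piece contributes RNA. Libraries were made from 200 ng of RNA. Whether replicates of a region are different embryos, pools or repeat preparations is not stated in the labels. Each p-value therefore refers to the variation among these 6 samples, and that variation can include a technical share.

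The ventral midbrain holds the midbrain floor plate, a strip of progenitors at the ventral midline that secretes Sonic hedgehog and, unlike the floor plate farther back, gives rise to dopamine neurons. At this age these neurons are being born and are switching on the enzymes and transporters of dopamine. Oculomotor and red nucleus neurons arise beside them, and serotonin neurons arise just behind the midbrain, past the boundary region called the isthmus. The forebrain comprises the telencephalon, which forms the cortex and basal ganglia, and the diencephalon, which forms the pretectum, thalamus, prethalamus and, by most accounts, part of the hypothalamus. Regional transcription factors, most of them homeodomain proteins, distinguish these territories.

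Values are RPKM, reads scaled by gene model length and by mapped library size, which puts genes on a common per-length scale. The 6 libraries held 8333178 to 11104464 recovered reads in gene models, and 3 reads of a gene of median length corresponded to 0.0833 to 0.112 RPKM. Smaller values were treated as not detectable at this depth, a limit that covers counting error only. Differences are ventral midbrain minus forebrain on the log2(RPKM + 1) scale, each with its standard error (SE). This scale understates the change of weakly expressed genes. A gene was called when limma gave a Benjamini-Hochberg adjusted p under 0.05 over all 13161 genes with at least 1 RPKM in at least 3 of the 6 libraries. In dissected tissue, fewer cells of a type and less RNA per cell cannot be told apart.

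The ventral midbrain libraries were alike, and 1 forebrain library stood apart. Across the genes tested, Pearson's r on the log2 scale was 0.991 to 0.994 between the ventral midbrain libraries and 0.991 between forebrain 2 and forebrain 3. Forebrain 1 had r = 0.963 with forebrain 2 and 0.958 with forebrain 3, about as low as the highest values between regions, which ranged from 0.930 to 0.963. Results are therefore given with forebrain 1 and, where a count of a main list changes, also without it. Libraries 1 and 2 of both regions held Xist and almost no Y-linked transcripts, while library 3 of both regions held Ddx3y, Kdm5d, Eif2s3y and Uty and almost no Xist. The sex of the source tissue was therefore balanced between the regions.

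Of the 13161 genes tested, 1984 were called, which is 15.1%. Of these, 1273 were higher in the ventral midbrain, 9.67% of the genes tested, and 711 were lower, 5.4%. The higher genes had the larger differences: their median was 0.72, and 392 of them passed a difference of 1, while the lower genes had a median of -0.45, and 101 of them passed -1. In all 1984 called genes the 3 libraries of one region did not overlap with the 3 of the other. Groups did not overlap in 36.5% of all genes tested, 19.6% with the ventral midbrain higher and 16.8% with it lower. Without forebrain 1 the number of called genes was 4368, or 33.2%, with 2429 higher (18.5%) and 1939 lower (14.7%). All 1984 genes then kept their call, a weak check, as forebrain 1 was the library that stood apart. Their direction could not change with a library left out, because their groups did not overlap. Each other omission gave fewer calls, with 877, 921 and 801 without ventral midbrain 1, 2 and 3, 1129 without forebrain 2 and 1499 without forebrain 3. List counts given below for all 6 libraries stand beside 9.67% higher and 5.4% lower over all genes tested. List counts without forebrain 1 stand beside 18.5% and 14.7%, so a larger count there is not by itself a result about the list.

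The 15 largest called differences upward belonged to genes of the midbrain and isthmus (En2, En1, Cnpy1, Pax5), of the floor plate (Sulf1, Corin, Ferd3l, Spon1), of dopamine neurons (Th, Pitx3, Ddc), of serotonin neurons (Slc6a4, Fev), to the LIM homeobox gene Lhx4 and to Ccdc3, which encodes a secreted coiled-coil protein. The 15 largest downward were headed by Tcf7l2, Lhx2, Shox2 and Lhx9, all known from the thalamus and pretectum, and included Bhlhe23, Dbx1, Tfap2d, Barhl2, Zic1, Six3, Pax6, Fgf15, Calb1, Six3os1 and Mab21l2. Ccdc3 had 26.1, 27.8 and 32.5 RPKM in ventral midbrain 1 to 3, against 0.369, 1.003 and 1.28 RPKM in forebrain 1 to 3 (difference 4.01 ± 0.20, adjusted p = 0.000203). Tfap2d, an AP-2 family transcription factor, had 0.0600, 0.139 and 0.0503 RPKM in the ventral midbrain and 26.6, 27.5 and 8.34 RPKM in the forebrain (difference -4.17 ± 0.42, adjusted p = 0.00182). In all 30 genes the libraries of the 2 regions did not overlap, a condition of the rule by which these genes were named.

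**Figure D1:**
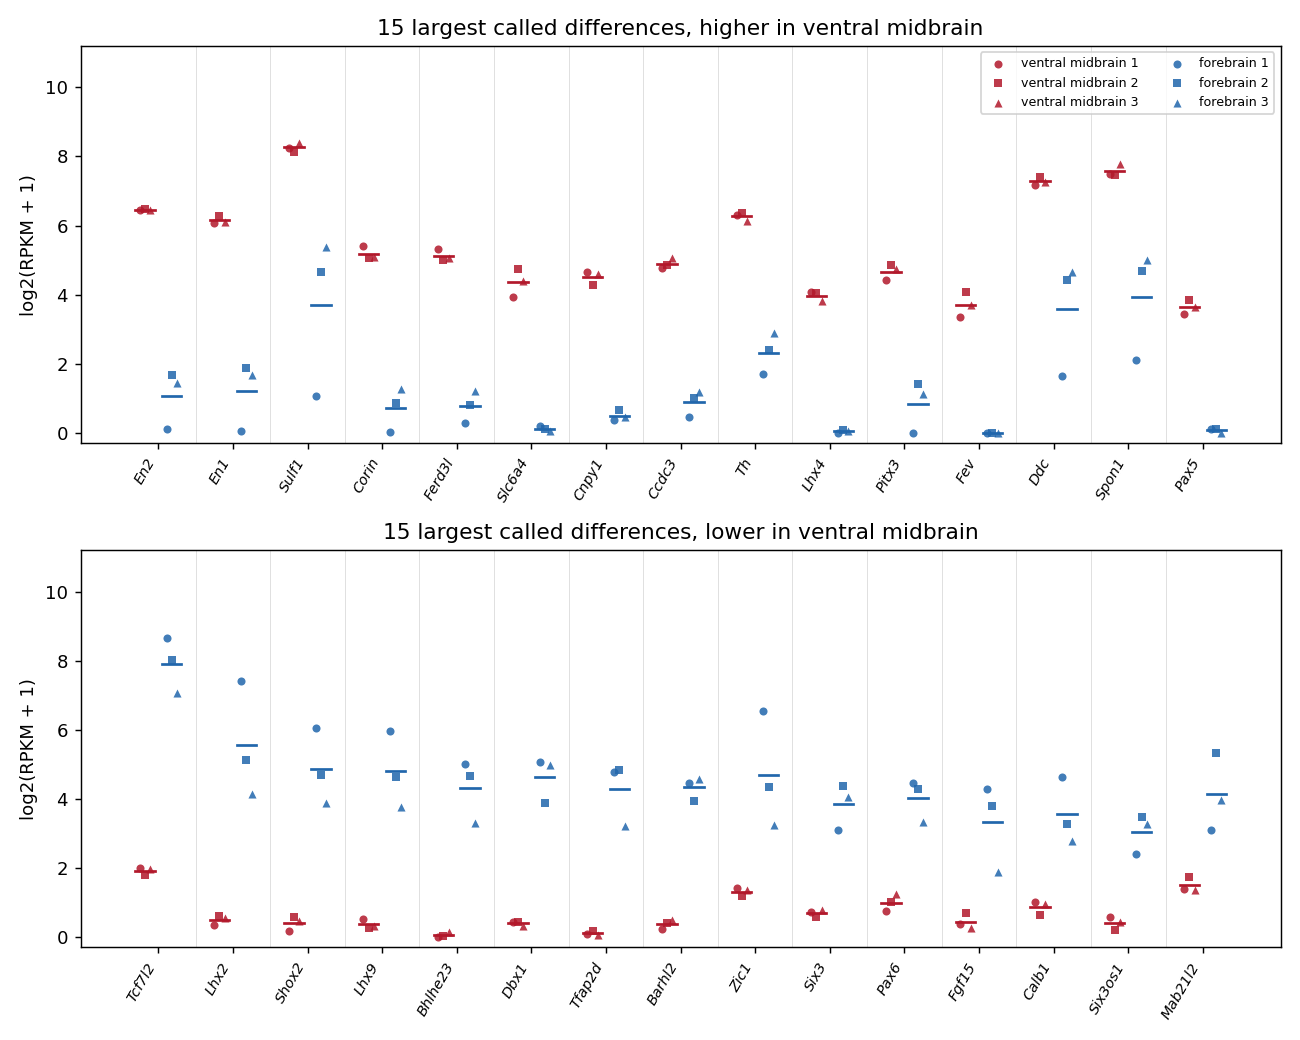
The level of the 15 genes with the largest called differences in each direction is plotted for each library as log2(RPKM + 1) on the vertical axis, with ventral midbrain to the left of forebrain, a symbol for each library number and a bar at the mean. The ventral midbrain points lie close together, whereas forebrain 1 (circles) is the lowest forebrain library for En2, En1, Sulf1, Corin and Ddc and the highest for Tcf7l2, Lhx2, Shox2 and Lhx9.

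The bases before the start of 4 of these genes are shown because these genes stand at the 2 ends of the comparison: Th and Fev, which were higher, and Tcf7l2 and Dbx1, which were lower. The sequences are the 250 bases upstream of a start listed by RefSeq for GRCm38.p6, read 5′ to 3′ on the gene's strand, and Tcf7l2 has 2 listed starts, of which 1 is shown. Capitals mark matches to 3 motifs searched on both strands: TAATTA, bound by many homeodomain proteins, TAATCC, bound by homeodomain proteins of the Otx and Pitx kind, and TGACGTCA, the cAMP response element. The motifs do not overlap one another here, and the third was added after the Th sequence had been read.
Th, chr7:142899996-142900245, strand minus: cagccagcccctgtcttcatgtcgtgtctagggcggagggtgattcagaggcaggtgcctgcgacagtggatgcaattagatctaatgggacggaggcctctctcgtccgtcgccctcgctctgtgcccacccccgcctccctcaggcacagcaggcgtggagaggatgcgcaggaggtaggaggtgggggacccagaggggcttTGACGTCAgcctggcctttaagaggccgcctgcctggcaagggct
Fev, chr1:74885409-74885658, strand minus: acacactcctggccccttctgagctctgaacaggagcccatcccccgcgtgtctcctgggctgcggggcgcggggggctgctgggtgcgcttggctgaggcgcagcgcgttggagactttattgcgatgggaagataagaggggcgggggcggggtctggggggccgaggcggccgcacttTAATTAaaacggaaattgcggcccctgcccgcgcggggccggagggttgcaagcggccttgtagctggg
Tcf7l2, chr19:55741560-55741809, strand plus: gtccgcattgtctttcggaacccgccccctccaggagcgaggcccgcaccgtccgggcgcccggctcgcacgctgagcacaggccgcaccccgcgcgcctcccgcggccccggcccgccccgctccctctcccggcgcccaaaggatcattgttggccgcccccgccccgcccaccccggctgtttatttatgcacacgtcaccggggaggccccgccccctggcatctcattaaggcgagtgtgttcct
Dbx1, chr7:49636836-49637085, strand minus: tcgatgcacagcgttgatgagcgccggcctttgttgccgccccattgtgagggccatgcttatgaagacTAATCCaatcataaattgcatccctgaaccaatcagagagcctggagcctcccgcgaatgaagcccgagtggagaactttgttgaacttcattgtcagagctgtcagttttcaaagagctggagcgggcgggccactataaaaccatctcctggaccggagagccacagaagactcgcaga
The Th sequence holds TGACGTCA 45 bases before the start, a motif present in 1.55% of the 32851 windows of this length in the RefSeq table. The Fev sequence holds TAATTA at 69 bases, a motif present in 4.84% of windows. The Dbx1 sequence holds TAATCC at 181 bases, a motif present in 6.25% of windows. No match to the 3 motifs lies in the Tcf7l2 sequence, which says only that these letters are not in this window. The share of G and C was 64.4% for Th, 68.0% for Fev, 72.8% for Tcf7l2 and 52.8% for Dbx1, against a median of 52.4% over all windows.

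The labelled identity of the 2 regions was checked against their defining genes. All 3 ventral midbrain libraries held the midbrain genes En1 and En2, the floor plate genes Foxa2, Lmx1a and Shh and the dopamine neuron genes Th, Ddc and Pitx3. None of the 14 Hox genes looked up, which mark most of the hindbrain and the spinal cord, reached the level tested in either region. Hoxa2 had at most 0.119 RPKM in any library, and Hoxb2 was at 0 in all 6. Hox genes are not active in the hindbrain next to the isthmus, so their absence cannot show whether that tissue was present. In the forebrain libraries, the telencephalic genes described here were low or near the detection limit. Tbr1, a marker of cortical neurons, had 0.0272, 0.0209 and 0.0456 RPKM in the ventral midbrain and 0.0749, 0.0261 and 0.101 RPKM in the forebrain. Emx1, a marker of cortical progenitors, was low but detected, with 0, 0.469 and 0.0730 RPKM in the ventral midbrain and 0.240, 2.67 and 2.52 RPKM in the forebrain, so that forebrain 2 and 3 stood above forebrain 1. In the samples labelled forebrain, thalamic and pretectal genes were thus abundant while Tbr1 was at or near the detection limit.

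Midbrain and isthmus patterning genes were higher in the ventral midbrain in 11 of the 15 members tested, and none was lower, with a median difference of 1.40 against a median of 0.0024 over all genes tested. En1 and En2 are the engrailed homeobox genes that give the midbrain its identity and keep dopamine neurons alive. En2 had 85.9, 87.8 and 86.6 RPKM in the ventral midbrain, against 0.0839, 2.19 and 1.70 RPKM in the forebrain (difference 5.38 ± 0.38, adjusted p = 0.000579). En1 had 66.98, 76.7 and 67.5 RPKM in the ventral midbrain, against 0.0383, 2.65 and 2.20 RPKM in the forebrain (difference 4.96 ± 0.45, adjusted p = 0.00128). Both genes were near 0 in forebrain 1 and low but detectable in forebrain 2 and 3.

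Genes of the isthmus itself, the signalling centre at the midbrain-hindbrain boundary, were present in the ventral midbrain samples. Pax5, a paired-box gene of that boundary, had 9.92, 13.4 and 11.6 RPKM in the ventral midbrain and 0.0778, 0.0814 and 0 RPKM in the forebrain (difference 3.58 ± 0.13, adjusted p = 0.000164). Its 486 reads in the ventral midbrain against 2 reads in the forebrain gave a depth-corrected ratio of 241, with a 95% exact counting interval of 66.4 to 1998. Fgf8, the secreted factor of the isthmus, had 2.27, 2.89 and 2.36 RPKM in the ventral midbrain and no read in any forebrain library, so that it was at least 37.4-fold higher against a floor of 3 reads over the 3 forebrain libraries. Cnpy1, a chaperone of FGF receptors known from zebrafish, had 24.3, 18.5 and 23.03 RPKM in the ventral midbrain and 0.299, 0.581 and 0.381 RPKM in the forebrain (difference 4.01 ± 0.13, adjusted p = 0.00016). Wnt1, which is needed for the midbrain to form, had 6.46, 5.18 and 4.59 RPKM in the ventral midbrain and 0, 0.215 and 0.267 RPKM in the forebrain (difference 2.46 ± 0.16, adjusted p = 0.000402). Pax2 was too low to be tested, at 0.390, 0.409 and 0.119 RPKM in the ventral midbrain and 0, 0.0340 and 0 RPKM in the forebrain. The members tested but not called were Fgf18, Lmx1b, Gbx2 and Sp5, and without forebrain 1 the list had 13 higher and 1 lower, the lower one being Gbx2 (adjusted p = 0.000281). With any other library left out, 9 to 11 were higher.

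Otx2, the homeobox gene that marks forebrain and midbrain alike, had 65.2, 44.3 and 47.6 RPKM in the ventral midbrain and 41.4, 35.5 and 25.6 RPKM in the forebrain. The libraries of the 2 regions did not overlap, and the difference of 0.61 ± 0.21 was not called (adjusted p = 0.102). It was called with the library number as a block (adjusted p = 0.0288) and without forebrain 1 (adjusted p = 0.0164). The pairing by library number and the standing apart of forebrain 1 were both read from these same data. Such calls, here and below, are therefore not independent support.

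Floor plate and dopamine progenitor genes were higher in the ventral midbrain in 12 of the 20 members, all of which were tested, with a median difference of 2.87, and none was lower. Corin, a membrane protease that marks the midbrain floor plate, had 41.2, 32.4 and 33.1 RPKM in the ventral midbrain, against 0.0198, 0.829 and 1.41 RPKM in the forebrain (difference 4.46 ± 0.30, adjusted p = 0.000535). Ferd3l, a basic helix-loop-helix factor of floor plate progenitors, had 38.6, 30.8 and 32.2 RPKM in the ventral midbrain, against 0.207, 0.756 and 1.34 RPKM in the forebrain (difference 4.35 ± 0.24, adjusted p = 0.000257). Shh, the Sonic hedgehog ligand, had 51.8, 48 and 51.7 RPKM in the ventral midbrain, against 3.09, 4.77 and 14.9 RPKM in the forebrain (difference 2.84 ± 0.46, adjusted p = 0.00964). For Shh the highest forebrain library was forebrain 3, and the call depended on ventral midbrain 3 (adjusted p = 0.0506 without ventral midbrain 3). Msx1, a homeobox gene of dopamine progenitors, had 13.1, 12.8 and 10.9 RPKM in the ventral midbrain and 0.401, 0.471 and 1.62 RPKM in the forebrain (difference 2.91 ± 0.25, adjusted p = 0.001). Wnt5a, a ligand that promotes the differentiation of dopamine neurons, had 41.6, 38.5 and 37.1 RPKM in the ventral midbrain and 3.19, 5.19 and 8.82 RPKM in the forebrain (difference 2.66 ± 0.28, adjusted p = 0.00221).

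Secreted products of the floor plate were among the most abundant of these transcripts. Sulf1, an extracellular enzyme that trims heparan sulfate, had 303, 280.4 and 336 RPKM in the ventral midbrain and 1.09, 24.03 and 40.6 RPKM in the forebrain (difference 4.57 ± 1.04, adjusted p = 0.031). Spon1, the adhesion protein F-spondin, had 179.9, 177 and 221 RPKM in the ventral midbrain and 3.33, 24.9 and 31.2 RPKM in the forebrain (difference 3.65 ± 0.72, adjusted p = 0.0191). Both were lowest in forebrain 1, and both calls were lost with single libraries left out, for Sulf1 with adjusted p = 0.111 without ventral midbrain 1, 0.1 without ventral midbrain 2, 0.113 without ventral midbrain 3 and 0.0607 without forebrain 2, and for Spon1 with adjusted p = 0.0771 without ventral midbrain 1, 0.0716 without ventral midbrain 2 and 0.084 without ventral midbrain 3. Ntn1, the midline attractant netrin-1, had 229.5, 237 and 253 RPKM in the ventral midbrain and 20.5, 35.9 and 59.2 RPKM in the forebrain (difference 2.73 ± 0.34, adjusted p = 0.00363). Slit2, a midline repellent, had 132, 117 and 128 RPKM in the ventral midbrain and 7.36, 8.83 and 14.7 RPKM in the forebrain (difference 3.54 ± 0.22, adjusted p = 0.000366).

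The core transcription factors of the midbrain floor plate did not pass the test, and their forebrain libraries were spread over a wide range. Foxa2 had 75.5, 70.3 and 70.8 RPKM in the ventral midbrain, against 0.137, 16.2 and 20.6 RPKM in forebrain 1 to 3 (difference 3.28 ± 1.06, adjusted p = 0.0905). Lmx1a, which directs progenitors to the dopamine fate, had 81.8, 74.4 and 68.6 RPKM in the ventral midbrain, against 0.207, 6.93 and 41.3 RPKM in the forebrain (difference 3.36 ± 1.15, adjusted p = 0.105). Lmx1b had 44.6, 44.7 and 46.2 RPKM in the ventral midbrain, against 0.0771, 4.52 and 18.7 RPKM in the forebrain (difference 3.24 ± 0.94, adjusted p = 0.0676). Foxa1 had 77.05, 74.8 and 71.4 RPKM in the ventral midbrain, against 2.35, 12.3 and 32.5 RPKM in the forebrain (difference 2.72 ± 0.75, adjusted p = 0.0573, and 0.0497 with the library number as a block). In each of the 4 genes all ventral midbrain libraries were higher than all forebrain libraries, forebrain 1 was near the detection limit or lowest, and forebrain 3 was the highest forebrain library. Without forebrain 1 all 4 were called, with an adjusted p of 2.05e-05 for Foxa2, 0.0301 for Lmx1a, 0.00863 for Lmx1b and 0.00439 for Foxa1, and the differences were then 1.92, 2.05, 2.15 and 1.84. Without forebrain 3, Lmx1a, Lmx1b and Foxa1 were called too, with an adjusted p of 0.0172, 0.0143 and 0.0154. For the whole list, 17 members were higher and 1 lower without forebrain 1, and 9 to 16 were higher with any other library left out.

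**Figure D2:**
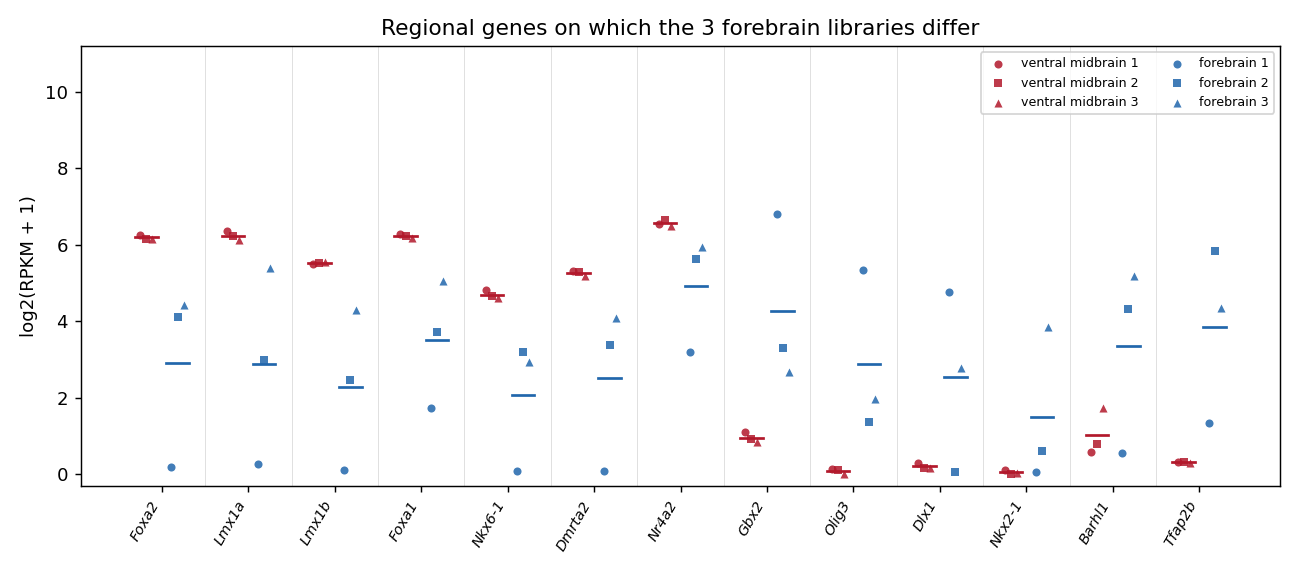
The level of 13 regional transcription factor genes is plotted for each library as log2(RPKM + 1), ventral midbrain to the left of forebrain, with a symbol for each library number and a bar at the mean. These genes were chosen because the forebrain libraries differ on them. The ventral midbrain points of Foxa2, Lmx1a, Lmx1b and Foxa1 lie together, whereas ventral midbrain 3 is above the others for Barhl1. Forebrain 1 (circles) is near 0 for Foxa2, Lmx1a, Lmx1b, Nkx6-1 and Dmrta2 and highest for Gbx2, Olig3 and Dlx1. Forebrain 3 (triangles) is the highest forebrain library for Nkx2-1 and Barhl1.

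Dopamine neuron genes were higher in the ventral midbrain in 13 of the 20 members tested, and 1 was lower, with a median difference of 1.98. The other 3 of the 23 members, Aldh1a1, Chrnb3 and Kcnj6, did not reach the level tested. Th, the rate-limiting enzyme of dopamine synthesis, had 77.5, 81.7 and 68.9 RPKM in the ventral midbrain, against 2.25, 4.24 and 6.39 RPKM in the forebrain (difference 3.94 ± 0.28, adjusted p = 0.000579). Ddc, the next enzyme of the pathway, shared with serotonin synthesis, had 144, 167 and 153 RPKM in the ventral midbrain, against 2.14, 20.7 and 24.4 RPKM in the forebrain (difference 3.69 ± 0.76, adjusted p = 0.0217). The Ddc call was lost with 1 ventral midbrain library left out, at adjusted p = 0.0844 without ventral midbrain 1, 0.0842 without ventral midbrain 2 and 0.0868 without ventral midbrain 3. Gch1, which makes the cofactor tetrahydrobiopterin used by tyrosine hydroxylase, had 13.98, 13.8 and 13.9 RPKM in the ventral midbrain and 0.320, 0.780 and 0.949 RPKM in the forebrain (difference 3.17 ± 0.15, adjusted p = 0.000203). Synthesis genes were therefore detected in the forebrain samples as well, at a fraction of the ventral midbrain level.

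Storage and uptake genes followed. Slc6a3, the dopamine transporter, had 6.55, 11.1 and 9.88 RPKM in the ventral midbrain and 0, 1.14 and 1.34 RPKM in the forebrain (difference 2.54 ± 0.35, adjusted p = 0.00543, and 0.053 under limma voom on recovered reads). Slc18a2, the vesicular transporter of all monoamines, had 43.5, 48.2 and 47.2 RPKM in the ventral midbrain and 16.2, 4.36 and 5.78 RPKM in the forebrain (difference 2.47 ± 0.40, adjusted p = 0.00982, and adjusted p = 0.0516 without ventral midbrain 3). Slc18a2 was highest in forebrain 1 among the forebrain libraries, the reverse of Th, Ddc and Slc6a3, which were lowest there. Pitx3, the homeobox gene of midbrain dopamine neurons, had 20.4, 27.9 and 25.6 RPKM in the ventral midbrain and 0, 1.66 and 1.17 RPKM in the forebrain (difference 3.83 ± 0.36, adjusted p = 0.00138). Nr4a2, the nuclear receptor that drives their differentiation, had 92.7, 99.7 and 89.1 RPKM in the ventral midbrain and 8.15, 48.2 and 60.6 RPKM in the forebrain, where forebrain 2 and 3 were far above forebrain 1. The Nr4a2 difference of 1.65 ± 0.68 was not called (adjusted p = 0.165), and without forebrain 1 it was 0.78 with an adjusted p of 0.000971.

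Receptors of these neurons were higher as well. Gfra1, a receptor of the survival factor GDNF, had 76.2, 72.6 and 68.6 RPKM in the ventral midbrain and 11.02, 14.3 and 16.2 RPKM in the forebrain (difference 2.32 ± 0.13, adjusted p = 0.000257). Ret, its signalling partner, had 10.3, 11.7 and 10.8 RPKM in the ventral midbrain and 0.274, 1.97 and 2.49 RPKM in the forebrain (difference 2.33 ± 0.36, adjusted p = 0.00825). Chrna6, the nicotinic subunit typical of dopamine neurons, had 6.79, 10.8 and 8.16 RPKM in the ventral midbrain and 0, 0.0354 and 0.192 RPKM in the forebrain (difference 3.14 ± 0.17, adjusted p = 0.000257). The member that was lower was Calb1, the calcium buffer calbindin, also made by many other neurons, with 1.01, 0.546 and 0.940 RPKM in the ventral midbrain and 23.97, 8.71 and 5.94 RPKM in the forebrain (difference -2.71 ± 0.45, adjusted p = 0.0102, and adjusted p = 0.0511 without ventral midbrain 2). Drd2, Slc10a4, Sox6 and Bnc2 were the remaining higher members. Without forebrain 1, 15 members were higher and 2 lower, and with any other library left out 8 to 12 were higher.

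Motor and red nucleus neuron genes were higher in 8 of the 10 members tested and lower in none, with a median difference of 2.36, while 8 of the 18 members were below the level tested. Phox2a, a homeobox gene required for the oculomotor nucleus, had 2.40, 2.45 and 1.52 RPKM in the ventral midbrain and 0.119, 0.0623 and 0.0482 RPKM in the forebrain (difference 1.52 ± 0.16, adjusted p = 0.00199). Transporters of acetylcholine metabolism were higher too. Slc18a3, which loads acetylcholine into vesicles, had 4.81, 5.57 and 3.99 RPKM in the ventral midbrain and 0.0809, 0 and 0.197 RPKM in the forebrain (difference 2.40 ± 0.14, adjusted p = 0.000309). Slc5a7, the choline transporter, had 6.32, 5.12 and 4.70 RPKM in the ventral midbrain and 0.231, 0.222 and 0.359 RPKM in the forebrain (difference 2.32 ± 0.13, adjusted p = 0.000257). The spinal motor neuron gene Mnx1 was at 0 in all 6 libraries.

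Lhx4, a LIM homeobox gene of developing motor neurons, had 15.7, 15.4 and 13.2 RPKM in the ventral midbrain and 0, 0.0545 and 0.0422 RPKM in the forebrain (difference 3.93 ± 0.10, adjusted p = 6.94e-05), from 905 and 2 reads. Isl1, a LIM homeobox gene of motor and other neurons, had 20.1, 14.8 and 14.3 RPKM in the ventral midbrain and 7.91, 0.324 and 0.816 RPKM in the forebrain (difference 2.63 ± 0.67, adjusted p = 0.0457), and its call was lost with 1 library left out (adjusted p = 0.158 without ventral midbrain 1, 0.128 without ventral midbrain 2, 0.132 without ventral midbrain 3, 0.12 without forebrain 2 and 0.123 without forebrain 3). Forebrain 1 alone held Isl1 at a clear level among the forebrain libraries. Pou4f1, the homeobox gene Brn3a of the red nucleus and, in the forebrain, of the habenula, had 27.4, 29.9 and 31.3 RPKM in the ventral midbrain and 4.10, 12.97 and 7.78 RPKM in the forebrain (difference 1.83 ± 0.33, adjusted p = 0.0146, and adjusted p = 0.0598 without ventral midbrain 1, 0.0627 without ventral midbrain 2 and 0.0689 without ventral midbrain 3). Without forebrain 1 all 10 tested members were higher, and with any other library left out 6 or 7 were.

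Serotonergic neuron genes were higher in 5 of the 9 members tested and lower in none, with a median difference of 1.59. Serotonin neurons arise in the hindbrain next to the isthmus, so these are markers of another cell type than the one the region is known for. Slc6a4, the serotonin transporter, had 14.2, 25.6 and 20.2 RPKM in the ventral midbrain, against 0.143, 0.0747 and 0.0289 RPKM in the forebrain (difference 4.24 ± 0.20, adjusted p = 0.000203). Fev, the transcription factor of serotonin neurons, had 9.27, 15.8 and 12 RPKM in the ventral midbrain and no read in the forebrain, and 628 reads against 0 made it at least 208-fold higher by the floor of 3 reads over the group. Tph2, the enzyme that begins serotonin synthesis in neurons, had 6.18, 12.8 and 10.9 RPKM in the ventral midbrain and 0, 0.703 and 0.725 RPKM in the forebrain (difference 2.88 ± 0.31, adjusted p = 0.00229). All 3 genes were lowest in ventral midbrain 1 and highest in ventral midbrain 2. The monoamine genes Ddc, Gch1 and Slc18a2 are used by serotonin neurons too, and the part of these cells in their differences was not tested. Without forebrain 1, 6 members were higher and 2 lower, and with any other library left out 4 to 6 were higher.

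**Figure D3:**
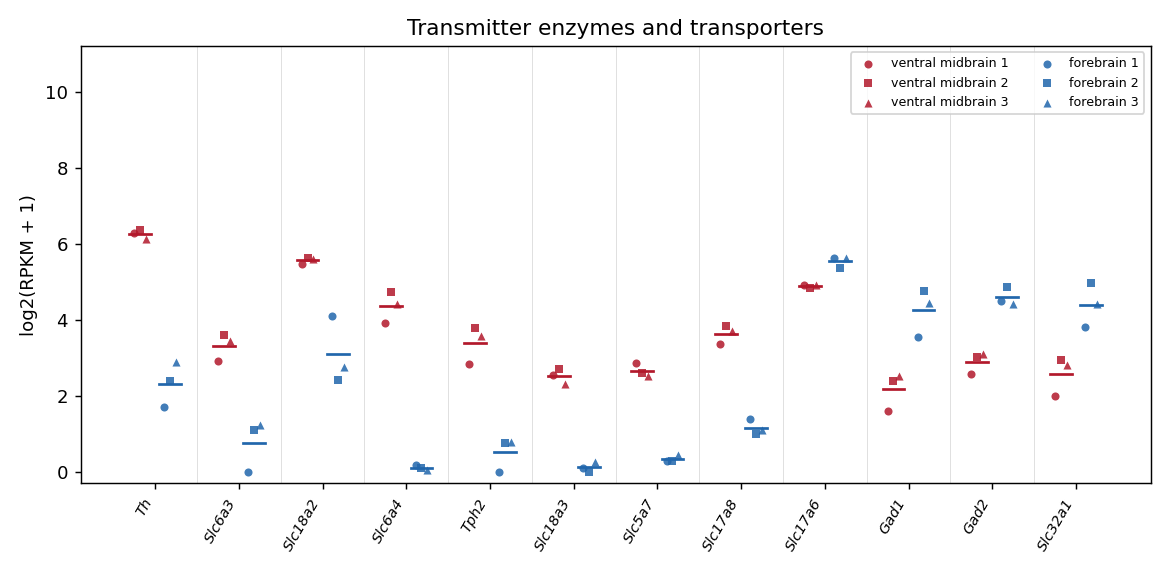
The level of 12 enzymes and transporters of neurotransmitters is plotted for each library as log2(RPKM + 1), ventral midbrain to the left of forebrain, with a symbol for each library number and a bar at the mean. The dopamine, serotonin and acetylcholine genes and Slc17a8 are higher in ventral midbrain, and Slc17a6, Gad1, Gad2 and Slc32a1 are lower, with no overlap of the regions in any of the 12 genes.

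Thalamus and pretectum genes were lower in the ventral midbrain in 15 of the 29 members tested, and 1 was higher, with a median difference of -1.33. Tcf7l2, a transcription factor of the Wnt pathway that marks the thalamus, pretectum and habenula, had 3.003, 2.46 and 2.90 RPKM in the ventral midbrain, against 404, 259 and 132 RPKM in the forebrain (difference -6.00 ± 0.37, adjusted p = 0.00036). Lhx2, a LIM homeobox gene of thalamic neurons, also of the cortex and the eye, had 0.279, 0.536 and 0.467 RPKM in the ventral midbrain, against 169, 33.7 and 16.6 RPKM in the forebrain (difference -5.05 ± 0.76, adjusted p = 0.00747). Its relative Lhx9 had 0.436, 0.204 and 0.254 RPKM in the ventral midbrain, against 62.03, 23.9 and 12.7 RPKM in the forebrain (difference -4.43 ± 0.51, adjusted p = 0.00282). In these 3 genes, and in Shox2, the forebrain libraries ran in the same order, with forebrain 1 highest and forebrain 3 lowest. Shox2, a homeobox gene of the thalamus, had 0.131, 0.503 and 0.384 RPKM in the ventral midbrain and 65.8, 24.9 and 13.6 RPKM in the forebrain (difference -4.46 ± 0.51, adjusted p = 0.00282).

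Other lower members followed that order in part. Dbx1, a homeobox gene of progenitors, had 0.357, 0.353 and 0.256 RPKM in the ventral midbrain and 32.5, 13.7 and 30.7 RPKM in the forebrain (difference -4.24 ± 0.31, adjusted p = 0.000635). Barhl2, a homeobox gene of the diencephalon, had 0.184, 0.318 and 0.423 RPKM in the ventral midbrain and 20.9, 14.5 and 23.1 RPKM in the forebrain (difference -3.95 ± 0.18, adjusted p = 0.000203). Bhlhe23, a basic helix-loop-helix factor, had 0, 0.0326 and 0.106 RPKM in the ventral midbrain and 30.99, 24.5 and 8.83 RPKM in the forebrain (difference -4.26 ± 0.41, adjusted p = 0.00159). Bhlhe23 followed the same order of forebrain libraries, and Dbx1 and Barhl2 were lowest in forebrain 2. Gbx2, which is required for thalamic neurons to differentiate, had 1.15, 0.881 and 0.793 RPKM in the ventral midbrain and 111, 8.89 and 5.44 RPKM in the forebrain, where forebrain 1 stood far above the other libraries. Its difference of -3.31 ± 1.0 was not called (adjusted p = 0.0745), but was called without forebrain 1 (difference -2.04, adjusted p = 0.000281) and with the library number as a block (adjusted p = 0.0495). The member that was higher was Pou4f1. Without forebrain 1, 18 members were lower and 4 higher, and with any other library left out 10 to 17 were lower.

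Of the 28 telencephalon genes, 12 reached the level tested, and 6 were lower and 1 higher. The lower members were Lhx2, Six3, Pax6, Neurod6, Gsx1 and Reln, which are also active outside the telencephalon. Six3, a homeobox gene of the anterior forebrain, had 0.645, 0.496 and 0.738 RPKM in the ventral midbrain and 7.62, 19.9 and 15.5 RPKM in the forebrain (difference -3.15 ± 0.31, adjusted p = 0.00169). Its antisense neighbour Six3os1 had 0.491, 0.153 and 0.360 RPKM in the ventral midbrain and 4.35, 10.1 and 8.70 RPKM in the forebrain (difference -2.65 ± 0.28, adjusted p = 0.00212), and without stated strand-aware counting, reads of the 2 genes cannot be told apart. Pax6, a paired-box gene of dorsal forebrain progenitors and of the pretectum, had 0.675, 1.01 and 1.38 RPKM in the ventral midbrain and 20.9, 18.4 and 8.997 RPKM in the forebrain (difference -3.02 ± 0.30, adjusted p = 0.00185). Neurod6, a factor of excitatory neurons, had 0.935, 1.70 and 0.784 RPKM in the ventral midbrain and 6.64, 10.3 and 9.40 RPKM in the forebrain (difference -2.20 ± 0.21, adjusted p = 0.00156). Without forebrain 1, 8 members were lower and 2 higher, and 6 were lower with any other library left out.

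Genes of the prethalamus and hypothalamus gave 4 higher and 3 lower of the 17 members tested, with a median difference of -0.05, and several of them differed widely between the forebrain libraries. Dlx1, a homeobox gene of inhibitory neurons of the prethalamus and basal forebrain, had 0.231, 0.118 and 0.129 RPKM in the ventral midbrain and 26.1, 0.0370 and 5.89 RPKM in forebrain 1 to 3. Dlx2 had 0.129, 0.0663 and 0.181 RPKM in the ventral midbrain and 11.3, 0.124 and 1.70 RPKM in the forebrain. Both were high in forebrain 1, present in forebrain 3 and near the detection limit in forebrain 2. Nkx2-1, which marks the hypothalamus and ventral telencephalon, had 0.0748, 0 and 0.0313 RPKM in the ventral midbrain and 0.0343, 0.538 and 13.3 RPKM in the forebrain, so it was at a clear level in forebrain 3 alone. These 3 genes were not tested, as they did not reach 1 RPKM in 3 libraries. Barhl1, another homeobox gene, had 0.497, 0.720 and 2.35 RPKM in the ventral midbrain and 0.483, 19.02 and 35.2 RPKM in the forebrain. The 3 forebrain libraries thus held different diencephalic genes, and no reason for this was tested. Hmx2 and Hmx3, homeobox genes known from the hypothalamus and the ear, went the other way: Hmx2 had 1.94, 2.60 and 1.996 RPKM and Hmx3 had 1.66, 2.27 and 2.09 RPKM in the ventral midbrain, and neither had a read in the forebrain. They were at least 40.7-fold and 31.1-fold higher against the floor of 3 reads. Without forebrain 1, 5 members of this list were higher and 6 lower, and with any other library left out 2 to 4 were higher and 2 lower.

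Genes of the tectum and dorsal neural tube were lower in 8 of the 18 members tested and higher in 2, with a median difference of -2.21. Zic1, a zinc-finger gene of the dorsal neural tube, had 1.67, 1.26 and 1.56 RPKM in the ventral midbrain and 92.3, 19.2 and 8.40 RPKM in the forebrain (difference -3.39 ± 0.76, adjusted p = 0.0298). Its call was lost with 1 library left out, at adjusted p = 0.105 without ventral midbrain 1, 0.105 without ventral midbrain 2, 0.105 without ventral midbrain 3 and 0.0746 without forebrain 2. Mab21l2, a gene of tectum and eye, had 1.62, 2.34 and 1.56 RPKM in the ventral midbrain and 7.62, 38.9 and 14.8 RPKM in the forebrain (difference -2.64 ± 0.51, adjusted p = 0.0183), with adjusted p = 0.0805 without ventral midbrain 1, 0.062 without ventral midbrain 2 and 0.0816 without ventral midbrain 3. Zic1 was highest in forebrain 1 and Mab21l2 in forebrain 2. The other lower members were Pax3, Lhx2, Lhx9, Meis2, Barhl2 and Dbx1, of which all but Pax3 and Meis2 stand among the 15 largest downward differences. The higher members were Pou4f1 and Bmp6. Without forebrain 1, 14 members were lower, and with any other library left out 4 to 8 were.

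GABAergic neuron genes were lower in the ventral midbrain in 8 of the 15 members tested, and none was higher, with a median difference of -1.41. Gad1, an enzyme that makes the inhibitory transmitter GABA, had 2.06, 4.23 and 4.74 RPKM in the ventral midbrain, against 10.7, 26.2 and 20.8 RPKM in the forebrain (difference -2.08 ± 0.36, adjusted p = 0.0125). Gad2, its paralogue, had 4.92, 7.15 and 7.64 RPKM in the ventral midbrain, against 21.5, 28.3 and 20.2 RPKM in the forebrain (difference -1.69 ± 0.18, adjusted p = 0.00229). Slc32a1, which loads GABA into vesicles, had 3.01, 6.64 and 6.09 RPKM in the ventral midbrain, against 12.97, 30.1 and 20.4 RPKM in the forebrain (difference -1.81 ± 0.35, adjusted p = 0.0181), and its call was lost with 1 library left out (adjusted p = 0.0598 without ventral midbrain 1, 0.0612 without ventral midbrain 3, 0.0506 without forebrain 2 and 0.0526 without forebrain 3). Each of these genes was lowest in library 1 of the ventral midbrain, and forebrain 2 was the highest library of all. Tal1, a transcription factor of inhibitory neurons, had 5.08, 6.87 and 8.16 RPKM in the ventral midbrain and 15.1, 44.2 and 27.3 RPKM in the forebrain (difference -1.85 ± 0.37, adjusted p = 0.0193), with adjusted p = 0.0856 without ventral midbrain 1, 0.0725 without ventral midbrain 2, 0.0614 without ventral midbrain 3 and 0.056 without forebrain 3. Nkx2-2, whose homeodomain protein is made by cells flanking the floor plate, had 3.92, 4.55 and 5.25 RPKM in the ventral midbrain and 18.1, 16.4 and 22.1 RPKM in the forebrain (difference -1.83 ± 0.14, adjusted p = 0.000699). The 4 members not tested were Dlx1, Dlx2, Dlx5 and Dlx6, which were highest in forebrain 1, lower in forebrain 3 and near or at 0 in forebrain 2. Without forebrain 1, 13 members were lower, and with any other library left out 4 to 6 were.

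Among the identity lists with no call in one direction, limma at an unadjusted p under 0.05 gave 1 lower member each for the midbrain and floor plate lists. It gave 0 lower members for the motor and serotonergic lists and 0 higher members for the GABAergic list, and limma voom on recovered reads gave 0 in each of these.

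Glutamatergic neuron genes split. Slc17a6, the vesicular glutamate transporter of subcortical neurons, was abundant in both regions, with 28.98, 27.6 and 28.97 RPKM in the ventral midbrain and 48.6, 40.3 and 47.95 RPKM in the forebrain (difference -0.66 ± 0.08, adjusted p = 0.00382). Slc17a8, a vesicular glutamate transporter also found in serotonin neurons, had 9.38, 13.2 and 12.1 RPKM in the ventral midbrain and 1.61, 1.005 and 1.16 RPKM in the forebrain (difference 2.47 ± 0.16, adjusted p = 0.000402). Pou4f1 was the other higher member of the 11 tested, and 8 were not called. Without forebrain 1, 4 members were higher and 2 lower, and with any other library left out 1 or 2 were higher and 1 lower.

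Of the 32 Wnt pathway genes tested, 12 were higher and 5 lower. The ligand Wnt5b had 5.38, 4.45 and 4.51 RPKM in the ventral midbrain and 0.453, 0.947 and 0.733 RPKM in the forebrain (difference 1.76 ± 0.14, adjusted p = 0.000849), beside Wnt1 and Wnt5a, and Wnt4 was the remaining ligand that was higher. The inhibitor Dkk2 had 2.77, 1.95 and 1.47 RPKM in the ventral midbrain and 0.267, 0.0839 and 0.433 RPKM in the forebrain (difference 1.27 ± 0.19, adjusted p = 0.00804). The receptors Fzd2, Fzd6, Fzd7 and Lrp5 were higher, and Fzd1 and Fzd8 were lower together with Wnt7b, Sfrp2 and Tcf7l2. Without forebrain 1, 17 were higher and 8 lower, with any other library left out 8 to 11 were higher and 2 to 5 lower, and in the fit of all 5 regions 6 were higher and 2 lower.

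Of the 23 FGF pathway genes tested, 11 were higher and 2 lower, with a median difference of 0.43. The higher members included targets that FGF signalling induces. Il17rd, an inhibitor of FGF signalling made in response to it, had 4.96, 4.58 and 4.78 RPKM in the ventral midbrain and 1.31, 1.25 and 1.55 RPKM in the forebrain (difference 1.28 ± 0.10, adjusted p = 0.00072). Etv5, a transcription factor induced by FGF, had 5.66, 5.63 and 6.71 RPKM in the ventral midbrain and 0.493, 1.95 and 1.91 RPKM in the forebrain (difference 1.58 ± 0.27, adjusted p = 0.0119), with adjusted p = 0.0533 without ventral midbrain 1, 0.051 without ventral midbrain 2 and 0.0624 without ventral midbrain 3. Fgf15, a ligand of diencephalic and dorsal midbrain progenitors, was lower, with 0.291, 0.626 and 0.195 RPKM in the ventral midbrain and 18.5, 12.8 and 2.72 RPKM in the forebrain (difference -2.88 ± 0.58, adjusted p = 0.0209). Fgf15 was lowest of the forebrain libraries in forebrain 3, and its call was lost with 1 library left out (adjusted p = 0.0864 without ventral midbrain 1, 0.0686 without ventral midbrain 2, 0.0894 without ventral midbrain 3 and 0.0746 without forebrain 2). With any library other than forebrain 1 left out, 6 to 10 members were higher, and without forebrain 1, 14 were higher and 5 lower. The fit of all 5 regions had 7 higher.

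Of the 16 hedgehog pathway genes tested, Shh, Cdon and Nkx2-9 were higher and Gli3 and Nkx2-2 lower. Ptch1, a receptor and direct target of the pathway, had 22.6, 23.8 and 23.2 RPKM in the ventral midbrain and 35.6, 23.9 and 24.3 RPKM in the forebrain, with an adjusted p of 0.358, and 0.499 without forebrain 1. Gli1, another direct target, had 0.648, 0.748 and 0.568 RPKM in the ventral midbrain and 8.20, 2.49 and 1.49 RPKM in the forebrain, and its difference of -1.38 ± 0.45 was not called (adjusted p = 0.0924), against 0.00912 without forebrain 1. Gli3, the transcription factor that represses targets where the ligand is absent, had 0.325, 0.420 and 0.392 RPKM in the ventral midbrain and 4.74, 3.74 and 1.27 RPKM in the forebrain (difference -1.52 ± 0.33, adjusted p = 0.0269, and adjusted p = 0.104 without ventral midbrain 1, 0.0905 without ventral midbrain 2, 0.0984 without ventral midbrain 3 and 0.0926 without forebrain 2). Without forebrain 1, 9 members were higher and 3 lower, and with any other library left out 0 to 2 were higher and 1 to 5 lower.

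Among the 22 BMP and activin pathway genes tested, 8 were higher and 1 lower. Id3, a target that BMP signalling induces, had 119, 92.4 and 88.5 RPKM in the ventral midbrain and 23, 25.9 and 31.6 RPKM in the forebrain (difference 1.86 ± 0.15, adjusted p = 0.000844). Fstl1, a secreted protein that binds such ligands, had 89.4, 71.7 and 75.7 RPKM in the ventral midbrain and 18.9, 17.2 and 23.8 RPKM in the forebrain (difference 1.94 ± 0.13, adjusted p = 0.000545). Bmp6, a ligand, had 3.98, 3.60 and 3.89 RPKM in the ventral midbrain and 0.405, 0.466 and 1.31 RPKM in the forebrain (difference 1.52 ± 0.20, adjusted p = 0.00483). In all 3 genes the ventral midbrain libraries lay well above the highest forebrain library. Without forebrain 1, 10 were higher and 2 lower, and 8 were higher with any other library left out.

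Among the 22 Notch pathway genes tested, 7 were higher and 1 lower. The receptor Notch2 had 13.8, 12.1 and 13.1 RPKM in the ventral midbrain and 3.52, 3.76 and 4.76 RPKM in the forebrain (difference 1.49 ± 0.11, adjusted p = 0.000719). The target Hey1 had 45.4, 39.5 and 39.3 RPKM in the ventral midbrain and 7.59, 12.3 and 16.9 RPKM in the forebrain (difference 1.74 ± 0.25, adjusted p = 0.00625). The target Hes1, which keeps cells in the progenitor state, had 10.4, 9.13 and 10.4 RPKM in the ventral midbrain and 3.48, 4.05 and 5.20 RPKM in the forebrain (difference 1.08 ± 0.13, adjusted p = 0.00374). With the library number as a block no member was lower, and without forebrain 1, 12 were higher and 4 lower. With any other library left out 6 or 7 were higher, and in the fit of all 5 regions 3 were.

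Among axon guidance genes, all 3 Slit ligands were higher. Slit1 had 74.02, 75.6 and 82.2 RPKM in the ventral midbrain and 11.7, 19.9 and 21.9 RPKM in the forebrain (difference 2.10 ± 0.21, adjusted p = 0.00185). Slit3 had 9.90, 9.27 and 8.94 RPKM in the ventral midbrain and 1.16, 2.07 and 2.13 RPKM in the forebrain (difference 1.92 ± 0.16, adjusted p = 0.000924). With Ntn1 these made up the 4 higher members of the 19 netrin, slit and robo genes, all tested, and 3 were lower. Among the 20 ephrin and Eph genes tested, 3 were higher and 4 lower. Efnb3, a midline ephrin, had 132, 135 and 146 RPKM in the ventral midbrain and 59.6, 55.1 and 60.2 RPKM in the forebrain (difference 1.23 ± 0.06, adjusted p = 0.000203). Epha8, a receptor first known from the tectum, had 1.75, 1.91 and 1.99 RPKM in the ventral midbrain and 18.5, 10.04 and 6.73 RPKM in the forebrain (difference -2.04 ± 0.31, adjusted p = 0.00802). Of the 29 semaphorin, plexin and neuropilin genes tested, 5 were higher and 5 lower, and the largest difference was that of the semaphorin receptor Nrp2, with 44.98, 44.4 and 43.96 RPKM in the ventral midbrain and 4.08, 10 and 20.99 RPKM in the forebrain (difference 2.08 ± 0.48, adjusted p = 0.0316, and adjusted p = 0.113 without ventral midbrain 1, 0.105 without ventral midbrain 2, 0.11 without ventral midbrain 3 and 0.0913 without forebrain 2). Without forebrain 1, 6 of the netrin, slit and robo genes, 7 of the ephrin and Eph genes and 7 of the semaphorin group were higher, and 4, 6 and 8 were lower. Over all genes tested, 18.5% were higher and 14.7% lower without forebrain 1. With any other library left out, 4 or 5 of the netrin, slit and robo genes were higher and 1 to 3 lower. The ephrin and Eph genes then had 1 to 3 higher and 2 to 4 lower, and the semaphorin group 2 to 5 in each direction.

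Of the 22 progenitor and radial glia genes, all tested, 8 were higher and 2 lower, with a median difference of 0.43. Slc1a3, a glutamate transporter of radial glia, had 71.3, 72.5 and 80.02 RPKM in the ventral midbrain and 10.5, 22.98 and 17.6 RPKM in the forebrain (difference 2.13 ± 0.25, adjusted p = 0.00305). Prom1, a membrane protein of neural progenitors, had 75.1, 67.8 and 69.1 RPKM in the ventral midbrain and 20.4, 11.7 and 12.98 RPKM in the forebrain (difference 2.20 ± 0.19, adjusted p = 0.00106). The 2 lower members were Pax6 and the nuclear receptor gene Nr2e1, both of them regional as well. Without forebrain 1, 14 were higher and 2 lower, with any other library left out 5 to 7 were higher and 1 or 2 lower, and in the fit of all 5 regions 5 were higher and 1 lower.

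None of the 25 cell division genes was called by limma in either direction, 0 of them had an unadjusted p under 0.05, and limma voom on recovered reads called 0 as well. The summed level of the 25 genes was 440.2, 305 and 304 RPKM in ventral midbrain 1 to 3, against 588, 203 and 232 RPKM in forebrain 1 to 3. Forebrain 1 was thus the highest and forebrain 2 and 3 the lowest of the 6 libraries, and ventral midbrain 1 was the highest of its region. Without forebrain 1, 18 of the 25 were higher and none lower, and with any other library left out none was called. Results that change without forebrain 1 therefore stand beside higher levels of cell division genes in that library, whose part in them was not tested.

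Among genes common to all neurons, neurofilaments were higher and several others lower. Of the 24 pan-neuronal genes, all tested, 3 were higher and 5 lower, with a median difference of -0.14. Nefm, the medium neurofilament subunit, had 182, 177 and 155 RPKM in the ventral midbrain and 29.98, 42.3 and 36.7 RPKM in the forebrain (difference 2.21 ± 0.13, adjusted p = 0.000291). Nefl, the light subunit, had 277, 283 and 251 RPKM in the ventral midbrain and 33.3, 78 and 73.04 RPKM in the forebrain (difference 2.21 ± 0.31, adjusted p = 0.00541). L1cam, an adhesion molecule of axons, had 43.8, 54.2 and 52.5 RPKM in the ventral midbrain and 80.5, 71.9 and 75.7 RPKM in the forebrain (difference -0.59 ± 0.09, adjusted p = 0.00824). The number of lower members was 8 with the library number as a block and 15 without forebrain 1, where 3 were higher. It was 1 to 3 with any other library left out and 0 in the fit of all 5 regions, where 2 were higher.

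**Figure D4:**
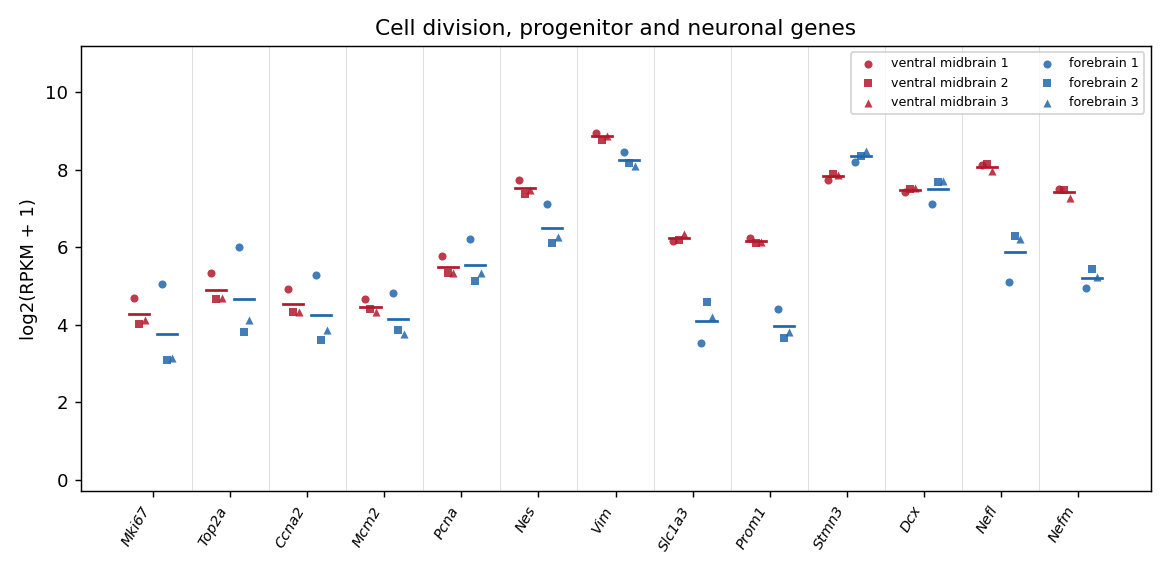
The level of cell division genes (Mki67 to Pcna), progenitor genes (Nes to Prom1) and neuronal genes (Stmn3 to Nefm) is plotted for each library as log2(RPKM + 1), ventral midbrain to the left of forebrain, with a symbol for each library number and a bar at the mean. The cell division genes are highest in forebrain 1 (circles) and lowest in forebrain 2 and 3, with ventral midbrain between, and Slc1a3, Prom1, Nefl and Nefm are higher in all ventral midbrain libraries than in any forebrain library.

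Markers of other cell types were compared to see whether another tissue moved with the regions. Of the 13 endothelial markers tested, 3 were higher and none lower, against 1 or 2 higher with any library other than forebrain 1 left out and 0 in the fit of all 5 regions. They had a summed level of 110.4 to 117 RPKM in the ventral midbrain and 89.95 to 95.9 RPKM in the forebrain. Microglia and macrophage markers were higher in 5 of 8 tested, summing to 24.98 to 28.3 RPKM in the ventral midbrain and 14.75 to 19.1 RPKM in the forebrain, with differences between 0.39 for C1qb and 0.74 for Fcer1g. These calls were fragile: with 1 library other than forebrain 1 left out, 0 to 2 of the microglial markers were called, in the fit of all 5 regions 1 was, and without forebrain 1 there were 6. Tyrobp and C1qb also lost the call with the library number as a block (adjusted p = 0.0504 and 0.0587), as Tie1 of the endothelial list did (0.0705). The part of blood vessels and microglia in the other results was not tested. Erythroid markers, 7 tested, gave no limma call (0 at an unadjusted p under 0.05 and 0 by voom), with sums of 1308 to 1347 RPKM in the ventral midbrain and 1279 to 1426 RPKM in the forebrain.

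Choroid plexus markers were higher in 3 of 4 tested, namely Folr1, Enpp2 and Sulf1 (4 without forebrain 1, 2 or 3 with any other library left out), and the defining transcript Ttr was at or near 0, at no more than 0.0703 RPKM in the ventral midbrain and 0.403 RPKM in the forebrain. Folr1, a folate receptor also made by midbrain progenitors, had 11.4, 9.62 and 9.62 RPKM in the ventral midbrain and 0.608, 1.98 and 2.73 RPKM in the forebrain (difference 2.10 ± 0.30, adjusted p = 0.00601). Neural crest markers summed to 51.4 to 53.4 RPKM in the ventral midbrain and 17.99 to 20.1 RPKM in the forebrain. Pituitary markers summed to 9.87 to 10.2 RPKM in the ventral midbrain and 4.94 to 56.97 RPKM in the forebrain, highest in forebrain 3. Muscle markers summed to 31.2 to 37.2 RPKM in the ventral midbrain and 37.3 to 38.2 RPKM in the forebrain, and eye markers to 3.0 to 4.84 RPKM in the ventral midbrain and 0.874 to 2.59 RPKM in the forebrain. The part of these cell types in the results was not tested. The 2 called members of the neural crest list were Isl1 and Pou4f1 (0 or 1 of them with a library other than forebrain 1 left out), which are also motor and red nucleus genes. Sox10, a defining neural crest gene, had at most 0.363 RPKM in the ventral midbrain and 0.234 RPKM in the forebrain. Most of the muscle sum was Acta1, with 31.7, 32.4 and 26.7 RPKM in the ventral midbrain and 33.8, 34.01 and 33.96 RPKM in the forebrain. Myod1, which defines muscle, was at 0 in the ventral midbrain and at most 0.0422 RPKM in the forebrain, and Pou1f1 and Crx were at 0 in all 6 libraries. The mesenchyme gene Col1a1 had 0.0693, 0.213 and 0.116 RPKM in the ventral midbrain and 1.19, 0.133 and 0.154 RPKM in the forebrain, with forebrain 1 the highest.

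**Figure D5:**
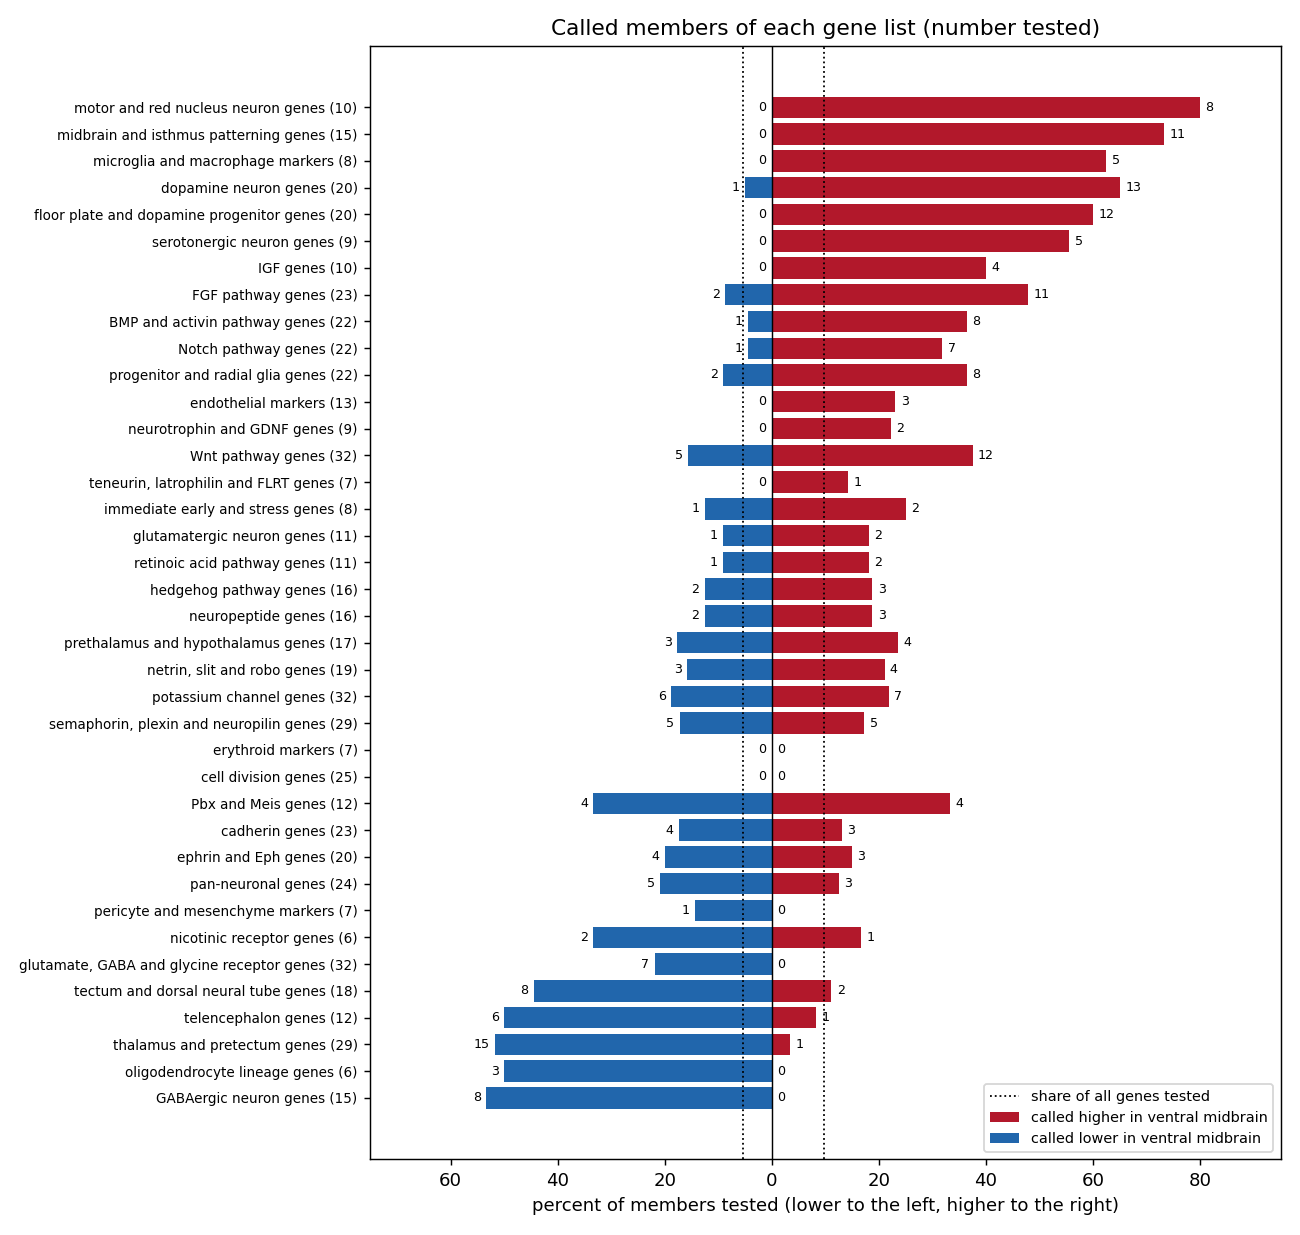
Bars give the percent of tested members of each gene list with at least 5 members tested, sex-linked genes left out, that were called lower (left, blue) or higher (right, red) in ventral midbrain, with the number called at the end of each bar, the number tested in parentheses and dotted lines at the share of all 13161 genes. Motor neuron, midbrain and isthmus, dopamine neuron, microglia and floor plate lists extend furthest to the right, and GABAergic, thalamic, telencephalic, oligodendrocyte and dorsal lists furthest to the left.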

How the data were processed

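RNA-seq values of 6 libraries, 3 of ventral midbrain and 3 of forebrain, were used from the deposited table of 15 libraries. The table holds RPKM values that the authors deposited; Bowtie and the mouse build mm9 are named per the submitters' processing notes, while for the aligner version, the annotation and the counting rule the entry is: not given in the sources used here. Per the labels' protocols, RNA was extracted with Trizol from tissue dissected under a microscope, and libraries followed an Illumina TruSeq guide. No count test was the main test, as RPKM values are not counts.

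Differences of log2(RPKM + 1), with a pseudocount of 1, were fitted with limma 3.58.1 (trend) in R 4.3.3 for the 13161 of 24264 genes with at least 1 RPKM in at least 3 of the 6 libraries, and p-values were adjusted over all of them by Benjamini-Hochberg. A gene expressed in 1 region enters through that region, so counts over tested list members are descriptions. Steps in low values gave whole reads for 17493 of 17510 genes (99.9%, tolerance 0.02 of a read, growing to at most 0.15), and limma voom on these reads was added after seeing the data. Alternatives were other pseudocounts, filters, scalings, array weights, a fit of all 5 regions, the library number as a block, and each library left out. The fit was also run on simulated reads with the same spread in every library. That run does not cover a library that stands apart, as forebrain 1 does.

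Libraries with the same number deviated together (r = 0.401, 0.235 and 0.207 across genes for libraries 1, 2 and 3), so numbers were taken to pair the samples. Ventral midbrain 2 with forebrain 3 (r = 0.159) and ventral midbrain 3 with forebrain 2 (r = 0.163) came close to this. These values thus mainly set library 1 apart and hardly separate libraries 2 and 3. The pairing comes from the data and not from the labels. Named genes were the 15 largest called differences in each direction, among genes with no overlap between groups and a mean of at least 5 RPKM in a region, the 5 largest called in each of 45 lists, and defining region genes; others were named after their values were seen. Members and lists were chosen with earlier results of these data known. Promoter sequences are RefSeq's, on GRCm38.p6; coordinates on mm9 were not used here.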

Additional observations from a re-analysis of the deposited data

How the results depend on the processing

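Against 1984 called genes (1273 higher, 711 lower), a fit of all 5 regions called 1134, with 271 lower, and limma array weights called 4992, with 2685 higher and 2307 lower; the weight of forebrain 1 was then 0.159, and for the fit of 5 regions the cause was not tested. With 1 library left out, 801 to 4368 genes were called, 608 to 2429 of them higher and 193 to 1939 lower; the highest values of each came without forebrain 1. Ventral midbrain was the higher region for 64.2% of calls, against 76.1% in the fit of 5 regions and 53.8% with array weights. The replicate block, which uses the library numbers as pairs, called 2043 genes. Among the named genes it lost Ntng2, Kcnj10, Tie1, Tyrobp, C1qb and Mbp and gained Gbx2, Foxa1 and Otx2, and it changed no other call of a named gene. Voom on recovered reads, chosen after seeing the data, called 1954 of 13144 genes. A filter of at least 5 RPKM in at least 3 of the 6 libraries left part of the called named genes untested. Of 151 called named genes, 114 then kept their call, 1 lost it and the rest were not tested. With a library left out, no called gene could reverse, as the groups of called genes did not overlap. Counting untested as kept, 85 of the 151 kept their call under every alternative run and 0 reversed. Among the 15 largest differences upward 12 kept it, and among the 15 largest downward 6 did; Lhx2, Shox2, Bhlhe23, Tfap2d, Zic1, Fgf15, Calb1 and Mab21l2 lost it under voom and Pax6 in the fit of 5 regions. Of other called genes given with values, Slc6a3, Gli3, Tyrobp and C1qb also lost the call under voom, Calb1, Isl1, Pou4f1, Slc17a6, Meis2, Cdon, Hes1, Npy, L1cam, Tie1, Tyrobp and C1qb in the fit of 5 regions, Isl1, Tie1 and C1qb without a filter, Isl1 and Rxrg with a pseudocount of 0.1, and Tie1, Tyrobp and C1qb under quantile normalization; the causes were not tested. Depth limits genes under about 0.112 RPKM, 3 reads of a gene of median length in the shallowest library.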

Other observations

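The list of Pbx and Meis genes, whose homeodomain products pair with other homeodomain proteins on DNA, also holds the related Pknox and Tgif genes and Pbxip1. Of its 12 members, all tested, 4 were higher and 4 lower. Pbxip1, a protein that binds Pbx factors, had 9.73, 10.7 and 11.1 RPKM in the ventral midbrain and 1.91, 3.51 and 4.01 RPKM in the forebrain (difference 1.51 ± 0.20, adjusted p = 0.00495). Meis2 was lower, with 3.45, 2.07 and 3.58 RPKM in the ventral midbrain and 6.28, 15.1 and 10.6 RPKM in the forebrain (difference -1.48 ± 0.30, adjusted p = 0.0222, and adjusted p = 0.0735 without ventral midbrain 1, 0.0842 without ventral midbrain 2, 0.0692 without ventral midbrain 3, 0.0533 without forebrain 2 and 0.0646 without forebrain 3). Without forebrain 1, 7 were higher and 4 lower, and with any other library left out 3 or 4 were higher and 1 or 2 lower.

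Of the 10 IGF genes tested, the binding protein genes Igfbp2 and Igfbp5 and the receptor genes Igf1r and Igf2r were higher and none was lower. The other binding protein genes Igfbp3, Igfbp4, Igfbp7 and Igfbpl1 were not called. With any library other than forebrain 1 left out, 2 of the IGF genes were higher. Igfbp2 had 213, 194 and 188 RPKM in the ventral midbrain and 53.5, 42.6 and 41.9 RPKM in the forebrain (difference 2.09 ± 0.11, adjusted p = 0.000203). Igfbp5 had 139.6, 126 and 125 RPKM in the ventral midbrain and 32.2, 27.6 and 42.9 RPKM in the forebrain (difference 1.92 ± 0.15, adjusted p = 0.000815). Both were higher in every ventral midbrain library than in any forebrain library. In the retinoic acid list, the binding protein gene Crabp1 was lower, with 1.58, 1.01 and 0.994 RPKM in the ventral midbrain and 7.74, 16.4 and 5.58 RPKM in the forebrain (difference -2.20 ± 0.35, adjusted p = 0.00879), and the receptor gene Rxrg was higher, with 5.85, 5.23 and 5.21 RPKM in the ventral midbrain and 0, 0.691 and 1.41 RPKM in the forebrain (difference 2.01 ± 0.30, adjusted p = 0.00746). That list had 2 higher and 1 lower of 11 tested, and 3 of each without forebrain 1.

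Kcnk9, an acid-sensitive potassium leak channel, had 41.4, 43.3 and 41.5 RPKM in the ventral midbrain and 0.622, 6.10 and 3.78 RPKM in the forebrain (difference 3.50 ± 0.50, adjusted p = 0.00602), and 7 of the 32 potassium channel genes tested were higher and 6 lower, against 7 and 12 without forebrain 1 and 1 to 5 and 2 to 5 with any other library left out. Of 32 glutamate, GABA and glycine receptor genes tested, 7 were lower and none higher. Grm4, a glutamate receptor, had 1.44, 1.89 and 1.96 RPKM in the ventral midbrain and 5.16, 6.33 and 5.28 RPKM in the forebrain (difference -1.25 ± 0.12, adjusted p = 0.00166). Without forebrain 1, 17 of these receptor genes were lower and 1 higher, and with any other library left out 5 or 6 were lower. The peptide gene Vip had 7.09, 7.29 and 5.997 RPKM in the ventral midbrain and no read in the forebrain, at least 115-fold higher by the floor of 3 reads over the group. Pnoc, the gene of the peptide nociceptin, had 0.884, 1.89 and 1.61 RPKM in the ventral midbrain and 11.99, 16.1 and 12.1 RPKM in the forebrain (difference -2.56 ± 0.19, adjusted p = 0.000699), and Npy, the gene of neuropeptide Y, had 0.516, 0 and 0 RPKM in the ventral midbrain and 5.36, 5.11 and 2.94 RPKM in the forebrain, from 3 and 88 reads. Odz4, a teneurin that guides synaptic partners, had 33.7, 28.5 and 31.1 RPKM in the ventral midbrain and 7.37, 7.33 and 10.5 RPKM in the forebrain (difference 1.79 ± 0.14, adjusted p = 0.000819).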
